A study of Mus musculus with 8 samples.

Results

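The Toll-like receptor module examined here comprises 10 mouse genes: the receptors Tlr1, Tlr2, Tlr4, Tlr6 and Tlr9, the receptor-like gene Cd180, the co-receptors Cd14, Ly96 and Ly86, and the adaptor Myd88. They were chosen by name from 21887 protein-coding genes, and all 10 were found in the gene table. The choice was made with earlier results of these data known, so shares of all genes are given only as a background. For each gene, the called binding sites of the transcription factor PU.1 inside it or up to 10 kb outside either end were collected from 7 libraries. The merged sites in these windows numbered 55, of 246675 merged sites in all.

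Toll-like receptors recognise microbial lipids, proteins and nucleic acids and trigger the inflammatory response of monocytes, macrophages and granulocytes. Tlr2 acts as a dimer with Tlr1 or Tlr6 on bacterial lipoproteins, and Tlr9 detects unmethylated CpG DNA inside endosomes. Tlr4 detects lipopolysaccharide (LPS) together with the secreted protein MD-2, encoded by Ly96, after Cd14 has delivered the LPS. Cd180 (RP105) pairs with MD-1, encoded by Ly86, and all 5 Toll-like receptors signal through Myd88. PU.1 is an ETS-family factor that binds purine-rich motifs around GGAA and is required for myeloid differentiation.

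The binding data were ChIP-seq libraries (chromatin immunoprecipitation followed by sequencing) of AML246, a cell line from mouse acute myeloid leukaemia. Doxycycline (Dox) restores PU.1 in these cells, and taking it away lowers PU.1 again. The cells were grown with IL-3, Dox was used at 0.1 ug/mL, and its withdrawal was set at day 12. The libraries were day 0 (untreated), days 4, 8 and 12 of Dox, all from total viable cells, and 3 libraries titled knockdown Day 12- 4, Day 12- 8 and Day 12- 12. The treatment labels of these 3 libraries give other conditions: 12 days of Dox and Cd11b-high viable cells for Day 12- 4, 4 days off Dox for Day 12- 8, and 8 days off Dox for Day 12- 12. They are called by title below, without the word knockdown. A further sample, labelled 12 days off Dox, was not analysed here. All libraries came from a single leukaemia line grown in the same medium, and its cell identity was not checked, since binding sites hold no expression values.

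The site lists held 8043, 57424, 33962 and 86271 sites at days 0, 4, 8 and 12, and 9868, 21377 and 148415 for Day 12- 4, Day 12- 8 and Day 12- 12. Sequencing depth was unknown. Every time point had 1 library, so there is no replicate error to compare a difference with, and no p-values are given. Each site carries the authors' score, read as −log10 of its q-value, which depends on the depth and control of its own library. Scores rank sites within a list and are not levels of binding that can be compared between libraries. A site without a call may still be bound.

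Nearly all genes of the module had a called site at days 4, 8 and 12. Those lists were all longer than that of day 0. At day 0 a site lay in the window of 3 of the 10 genes, against 36.8% of all protein-coding genes. The counts were 10 of 10 at day 4, 9 at day 8 and 10 at day 12, where the shares of all genes were 69.8%, 61.7% and 77.1%. Tlr1 was the gene without a day 8 site. In Day 12- 4, Day 12- 8 and Day 12- 12, 4, 5 and 8 of the 10 genes had sites, against 34.8%, 61.8% and 78.9% of all genes. With all sites counted, the module thus lay above the share of all genes at days 4, 8 and 12, while at day 0 and in the 3 knockdown-titled libraries its count was near that share.

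A day 12 site without any day 0 site was found at 7 genes: Tlr1, Tlr2, Tlr9, Cd14, Ly86, Ly96 and Cd180. Of all genes, 42.1% had this pattern. With lists of equal length, described next, the pattern was left at 2 genes, Cd14 and Ly96, against 14.8% of all genes. Cd14 was kept there through a site 8.5 kb outside it, inside the neighbouring gene Tmco6. Of the 7 genes, all except Tlr1 had a site at each of days 4, 8 and 12, a pattern found in 28.3% of all genes. The other 3 genes, Tlr4, Tlr6 and Myd88, had a day 0 site, and its score was at most 8.41. No gene of the module had a day 0 site with a score of 20 or more, a minimum that 7.8% of all genes passed. At that minimum the module had 8, 5 and 6 genes at days 4, 8 and 12, where 45.9%, 40.1% and 56.8% of all genes passed. In Day 12- 4, Day 12- 8 and Day 12- 12 it had 2, 0 and 4, against 12.7%, 15.6% and 30.1%.

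The lists differed in length, which can change how many genes have a site, so the counts were repeated with only the 8043 top-scoring sites of every list, as many as day 0 had. In these equal lists the module had 3, 5, 5 and 4 genes with a site at days 0, 4, 8 and 12, against 36.8%, 25.5%, 29.2% and 35.2% of all genes. The genes were Tlr2, Tlr4, Tlr6, Tlr9 and Myd88 at both day 4 and day 8, and Tlr4, Cd14, Ly96 and Myd88 at day 12. Day 12- 4, Day 12- 8 and Day 12- 12 each had 4 genes, against 31.0%, 37.8% and 31.0% of all genes. The gap between the module and all genes was therefore widest at days 4 and 8 and narrow at day 12.

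**Figure D1:**
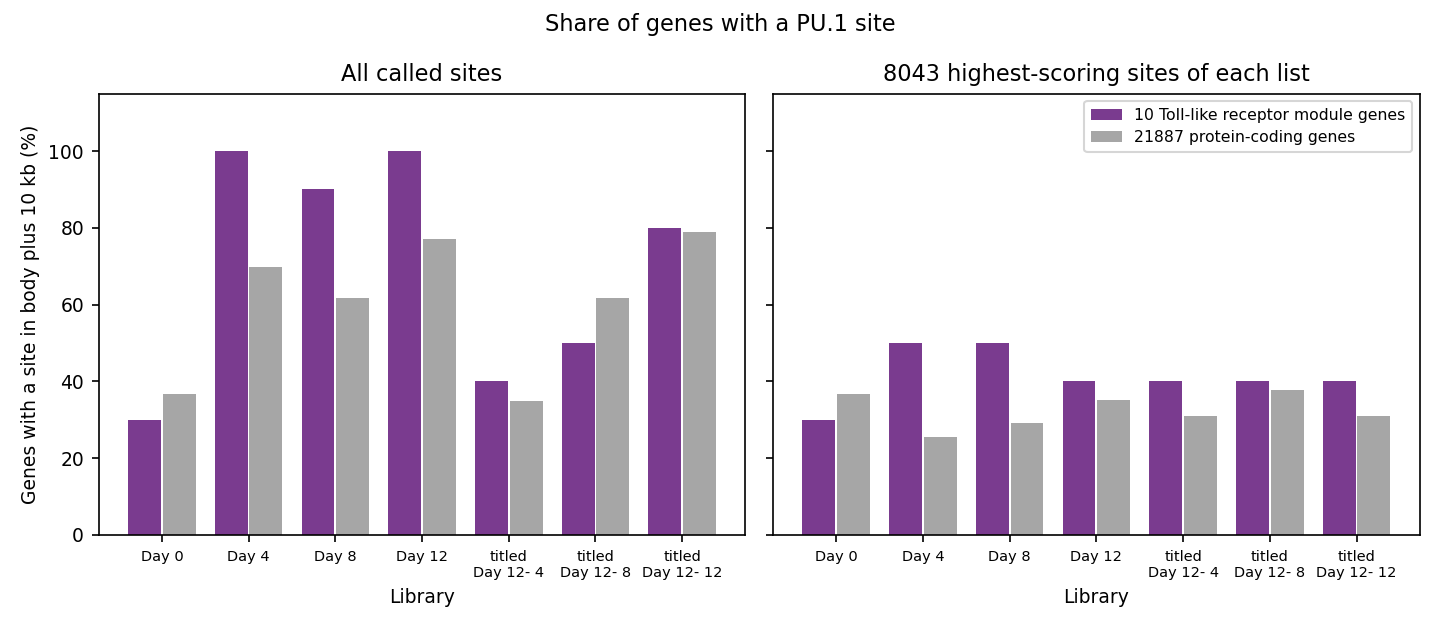
Percentage of genes with a PU.1 site in the body or within 10 kb, by library ordered by title, for the 10 genes of the module (purple) and all 21887 protein-coding genes (grey). There is 1 library per bar and no error bar. With all sites (left) the module reaches 10 of 10 genes at days 4 and 12, against 69.8% and 77.1% of all genes. With 8043 sites per list (right) it reaches 5 of 10 at days 4 and 8, against 25.5% and 29.2% of all genes. There it has 3 of 10 at day 0 and 4 of 10 at day 12, against 36.8% and 35.2%.

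Among the receptors, Tlr4, the LPS receptor (chromosome 4, 66827551 to 66846581, mm10), had the simplest arrangement. A single recurrent site lay at its lower-coordinate end, between 66827555 and 66827703, inside the gene. It was called in 6 of the 7 libraries, every one except Day 12- 8. Its scores were 3.32, 369.7, 138 and 126 at days 0, 4, 8 and 12, and 23.5 and 33.1 in Day 12- 4 and Day 12- 12. In the day 0 list this score was among the lowest, at rank 96.4% from the top, whereas at day 4 the site lay in the top 0.597%. Apart from it, the window held a single site, called at day 8 with a score of 6.86.

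Tlr9 (chromosome 9, 106222598 to 106226876), the receptor for CpG DNA, had a site at its transcript start, between 106222595 and 106222705. This start site was called in 5 libraries, all but day 0 and Day 12- 8. Its scores were 331, 77.9 and 77.2 at days 4, 8 and 12, and 7.48 and 20.8 in Day 12- 4 and Day 12- 12. At day 4 it lay in the top 0.862% of the list. The Tlr9 window held 16 merged sites, the most of the module, and 11 of them were called in a single library. Several lay in neighbouring genes: a site inside Twf2, an actin-binding protein gene, 7.6 kb outside Tlr9 (106214933 to 106215058), scored 65.3 at day 12 and was also called at day 8 and in Day 12- 4, Day 12- 8 and Day 12- 12, with scores of 5.94 to 15.0. Others lay in or nearest to Alas1, the heme synthesis enzyme gene on the other side.

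Tlr6 (chromosome 5, 64953092 to 64970942), which pairs with Tlr2, had a site inside the gene between 64960977 and 64960998. It was called at days 4, 8 and 12, with scores of 257, 47.9 and 71.4, and in no other library. The summits of the 3 lists lay within 21 bp, and the midpoint was 939 bp upstream of the nearest RefSeq transcript start. The day 0 site of Tlr6 was a different one. It lay at 64970134 near the upper-coordinate end, where Tlr6 and the neighbour Fam114a1 overlap, and scored 5.53. No other library had a summit within 100 bp of it. The Day 12- 8 summit counted for Tlr6 lay 126 bp away (64970260) and scored 5.14.

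Tlr2 (chromosome 3, 83836272 to 83841824), the shared partner of the lipoprotein receptors, had 2 recurrent sites. The distal one lay 7.77 kb outside the upper-coordinate end (83849554 to 83849634), upstream of the gene, with no other protein-coding gene nearer. It scored 130.5, 94.7 and 12.8 at days 4, 8 and 12 and 14.6 in Day 12- 12. The proximal one lay at the RefSeq transcript start (83841627 to 83841665). It was called at day 12, in Day 12- 8 and in Day 12- 12, with scores of 19.6, 11.5 and 4.05, and at neither day 4 nor day 8. Thus the site called at days 4 and 8 was the distal one, and the day 12 list held both. A further site, inside the gene (83839645), was called at day 4 alone with a score of 48.9.

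Tlr1 (chromosome 5, 64924680 to 64933600), the other Tlr2 partner, had 3 sites, all outside its body, and none at day 0 or day 8. The day 4 site (64923169) scored 15.9 and lay 1.51 kb outside the gene. The day 12 site (64915155 to 64915175) scored 15.1, lay 9.52 kb outside, and was called in Day 12- 12 at 6.42. Tlr1 was thus the only gene of the module that had no called site inside its body in any library.

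Cd180 (chromosome 13, 102693547 to 102706631), a receptor-like protein that modulates LPS responses, had its recurrent site immediately upstream of the transcript start, between 102693482 and 102693510. It scored 26.2, 6.86 and 4.61 at days 4, 8 and 12. No knockdown-titled library had a site in the Cd180 window. Cd180 was the only gene of the module with a day 12 site and none in those 3 libraries, a pattern found in 2.03% of all genes. The day 12 score ranked 79.8% from the top of its list.

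**Figure D2:**
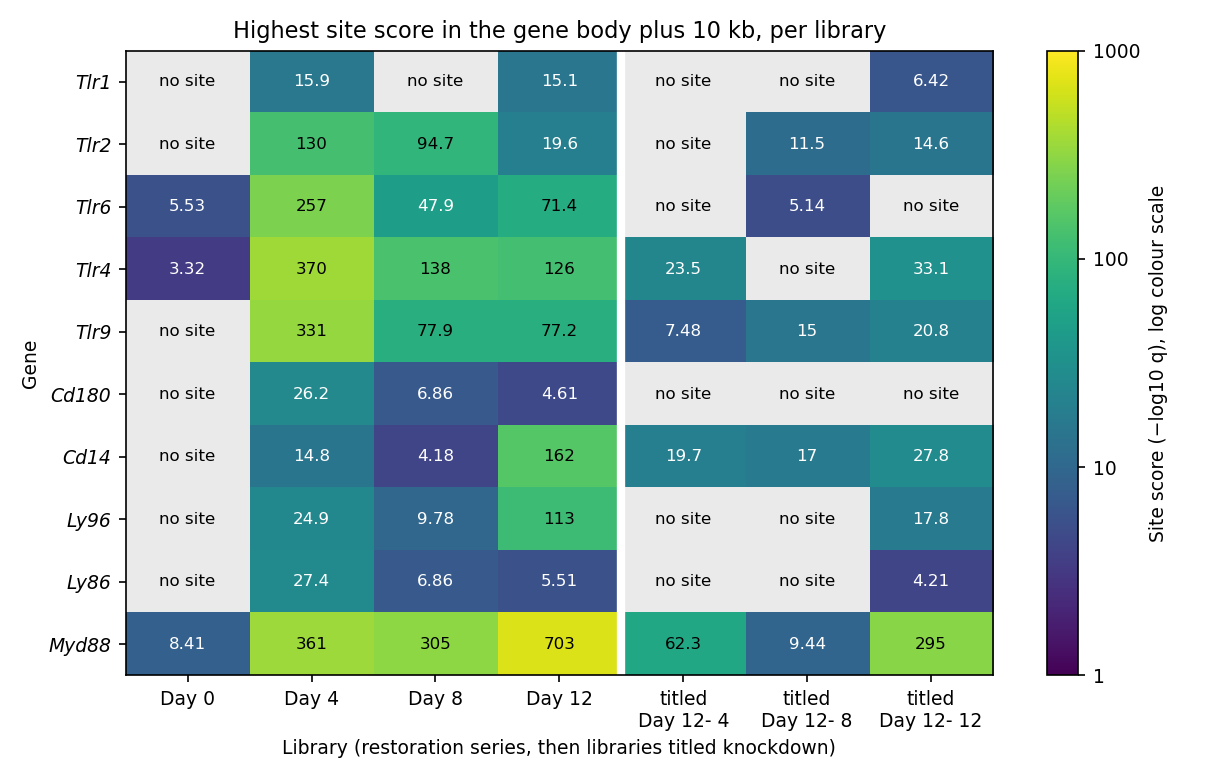
Highest site score (−log10 q, log colour scale) in the body plus 10 kb of each gene (rows, receptors first, then co-receptors and the adaptor) in each library (columns ordered by title). Grey cells had no called site. Myd88 has a value in every library, up to 703 at day 12, Tlr4 reaches 369.7 at day 4, and Cd180 has no site in the 3 libraries titled knockdown.

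Of the LPS co-receptors, Ly96 (chromosome 1, 16688456 to 16709605), which encodes MD-2, had a site 255 bp inside its lower-coordinate end (16688685 to 16688737). It scored 24.9, 9.78 and 113 at days 4, 8 and 12 and 17.8 in Day 12- 12. Day 0, Day 12- 4 and Day 12- 8 had no call. The arrangement resembled that of Tlr4, with nearly all calls of the window in a single site at the same kind of position.

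Cd14 (chromosome 18, 36725064 to 36726815), the LPS-delivering co-receptor, had its highest scores outside the gene. The recurrent site (36735262 to 36735373) lay 8.5 kb away inside Tmco6, and was called in all libraries except day 0. It scored 14.8, 4.18 and 162 at days 4, 8 and 12, and 19.7, 17.0 and 27.8 in Day 12- 4, Day 12- 8 and Day 12- 12. Inside Cd14 itself there were 3 sites, each called in a single library. They scored 13.4 at day 4 (36726681), 11.7 at day 12 (36725992) and 6.42 in Day 12- 12 (36726218).

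Ly86 (chromosome 13, 37345345 to 37419036), the longest gene of the module at 73692 bp, encodes MD-1, the partner of Cd180. Its 3 sites were all inside the gene, and each was called in 2 libraries. At day 4 the highest scored 27.4 (37356744 to 37356765) and lay 11409 bp from the transcript start, and a second scored 20.1 (37355814 to 37355839). The highest day 12 score was 5.51. In Day 12- 12 the site near the far end (37409815 to 37409913) scored 4.21, and Day 12- 4 and Day 12- 8 had none.

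Myd88 (chromosome 9, 119335934 to 119340018), the adaptor that links the receptors to the IRAK kinases, had the highest day 12 score of the module and was its only gene with a site in all 7 libraries, as had 17.5% of all genes. The main site (119334470 to 119334533) lay 1.43 kb beyond the lower-coordinate end, which is the 3′ end. It scored 361, 305 and 703 at days 4, 8 and 12, and 62.3 and 295 in Day 12- 4 and Day 12- 12. There it ranked in the top 0.646%, 0.557%, 0.104%, 6.56% and 0.139% of the lists, in the same order. A second site, at the transcript start, scored 54.5 at day 12 and between 3.49 and 9.13 in the other 4 libraries that called it. Its summits spread over 218 bp (119339812 to 119340030), linked to each other through the intervening ones.

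The day 0 entry for Myd88 was again another site. It lay inside the neighbouring gene Acaa1a, a peroxisomal thiolase gene, at 119341587, and scored 8.41. The nearest summits of other libraries lay 145 bp away in Day 12- 8 and 175 bp away at day 12. Of the 3 day 0 sites in the module, only that of Tlr4 thus had a summit of another library within 100 bp, the nearest being 7 bp away at day 4.

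**Figure D3:**
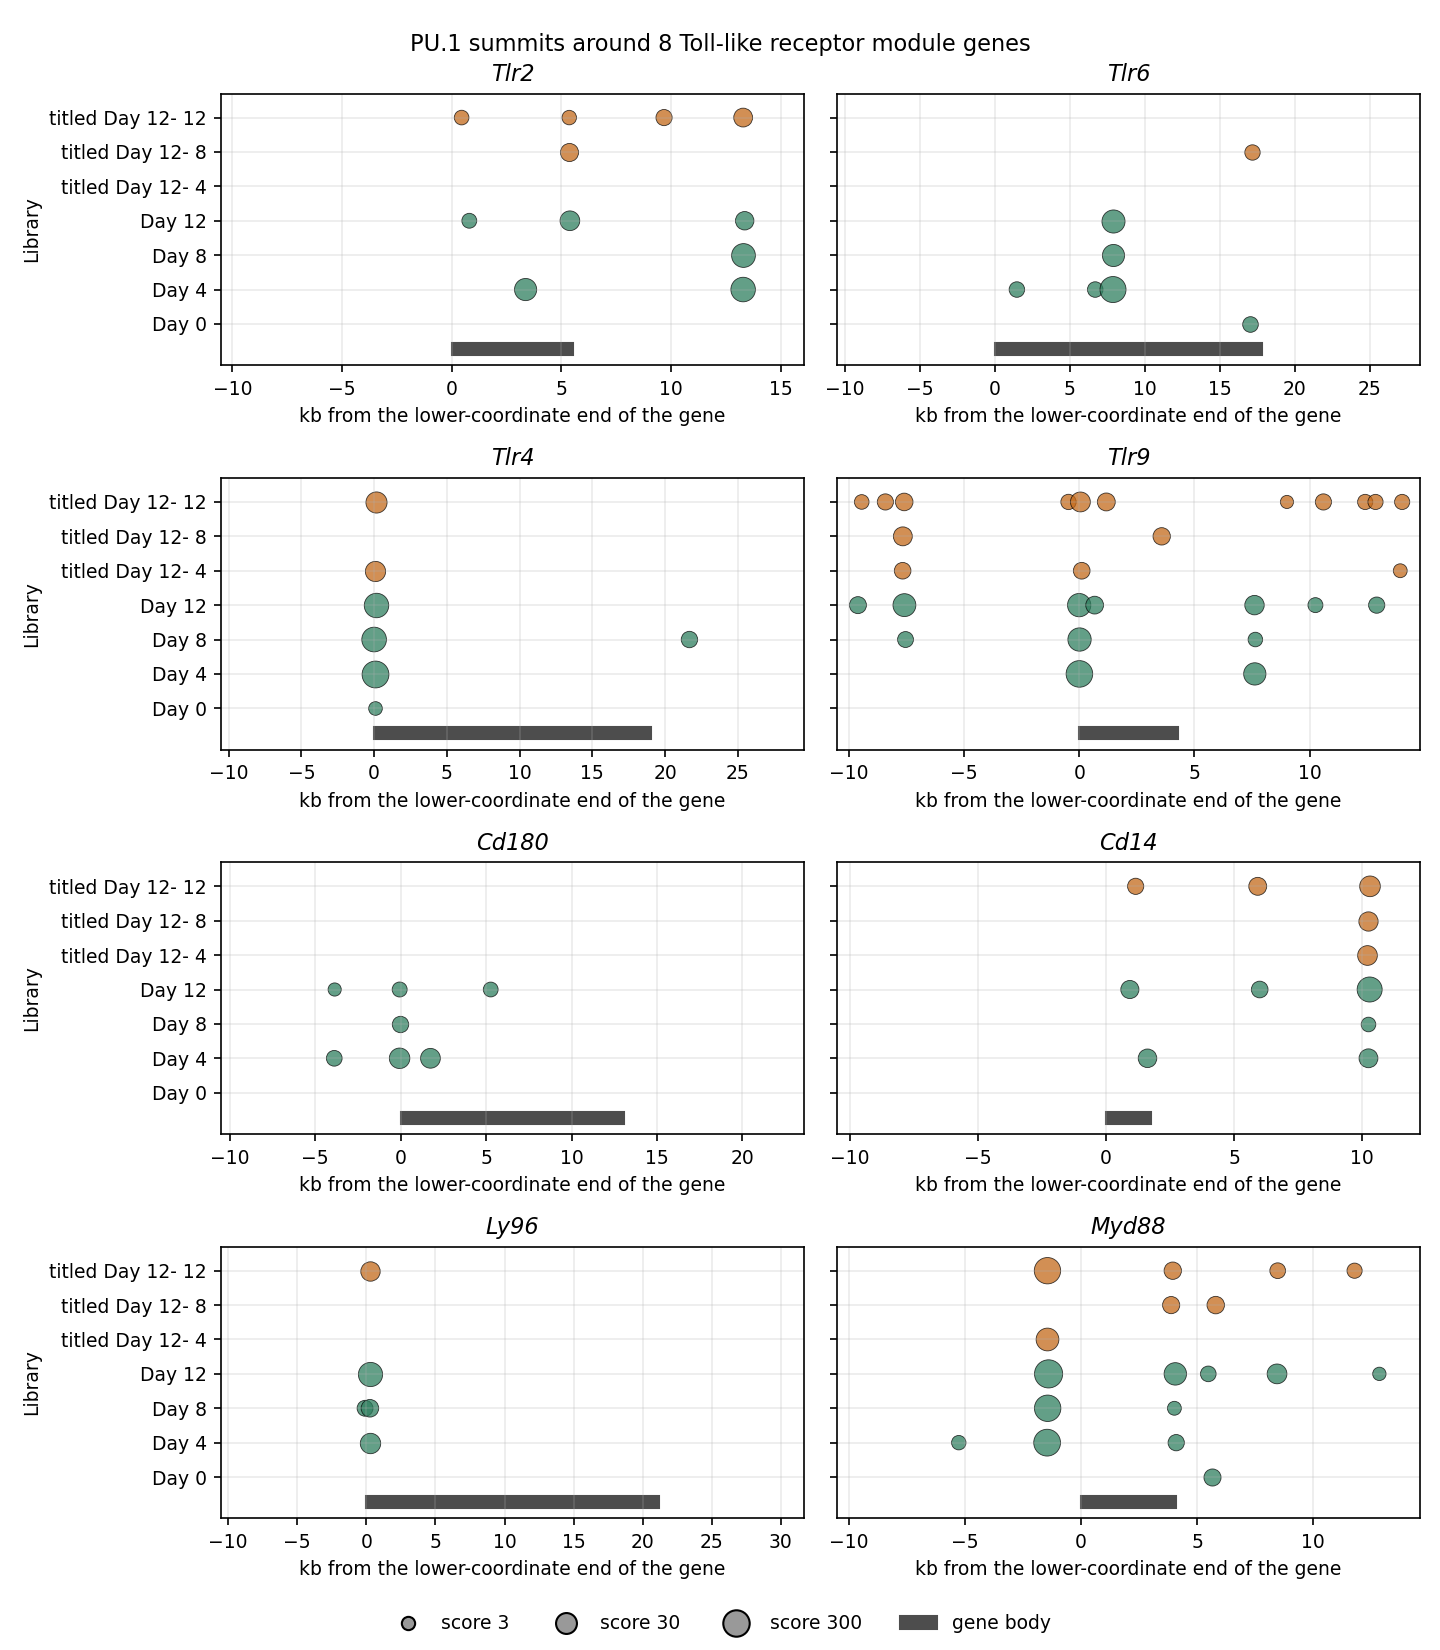
Positions of called summits around 8 genes of the module, in kb from the lower-coordinate end of each gene (horizontal axis), by library with day 0 at the bottom; circle size grows with the logarithm of the score, restoration libraries are green and knockdown-titled libraries orange. The same position recurs at Tlr4 in 6 libraries and near Myd88 in 5, while the day 0 circles of Tlr6 and Myd88 lie away from the sites that recur at days 4, 8 and 12.

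Taking the sites rather than the genes, 3, 20, 14 and 27 of the 55 merged sites were called at days 0, 4, 8 and 12, and 6, 7 and 27 in Day 12- 4, Day 12- 8 and Day 12- 12. Of all merged sites, 3.26%, 23.3%, 13.8% and 35.0% were called at days 0, 4, 8 and 12, and 4.0%, 8.67% and 60.2% in Day 12- 4, Day 12- 8 and Day 12- 12. A single library called 34 of the 55, against 73.0% of all merged sites. Day 12- 12 alone called 12 of the 55, against 41.5%. At least 5 libraries called 6 sites, against 2.72% of all merged sites. These 6 were the Tlr4 and Tlr9 start sites, the site in Twf2, the site in Tmco6 and both recurrent Myd88 sites. None of the 55 was called in all 7 libraries, against 0.379% of all merged sites.

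Of the 55 sites, 26 had a day 12 call and no day 0 call, against 33.7% of all merged sites. Of these 26, 13 were also called in a knockdown-titled library, which is close to the 50.5% of all such sites. All 13 were called in Day 12- 12, against 47.0% of all such sites. Day 12- 4 and Day 12- 8 called 4 each, against 7.19% and 6.67%. Without Day 12- 12 the count of 13 was 6. The sites called at all 3 of days 4, 8 and 12 numbered 10 of the 55, against 6.84% of all merged sites. These 10 included 7 that a knockdown-titled library also called, against 73.9% of all such sites.

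Of the 55 sites, 24 lay inside the gene they were counted for, and 19 had another protein-coding gene nearer. Within 500 bp of either end of the gene, the module had a site at 1, 6, 5 and 6 genes at days 0, 4, 8 and 12. The shares of all genes were 19.1%, 22.5%, 27.7% and 48.2%. In Day 12- 4, Day 12- 8 and Day 12- 12 the counts were 2, 2 and 5, against 12.9%, 37.3% and 40.6%. Tlr4, Tlr9, Ly96, Cd180 and Myd88 had such a site at each of days 4, 8 and 12. The share of all genes with such a site on all 3 days was not computed. Some of these calls were low in their lists. The Myd88 site ranked 97.8% from the top at day 8, and the Cd180 site 80.1% and 79.8% at days 8 and 12.

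Promoter sequences from RefSeq (build GRCm38.p6, which shares the coordinates of mm10) were matched for 7 of the 10 genes. Each was read from 250 bases before to 30 bases after the transcript start and searched on both strands for GGAA, the core of ETS motifs, and for GAGGAA, a longer PU.1-type motif that contains it. Shown are the promoters that held a summit or had one within 250 bp, 5′ to 3′ in the direction of transcription, with matches to either motif in capitals (GGAA or, on the other strand, TTCC).
Tlr9 promoter, chr9:106222348-106222627, plus strand: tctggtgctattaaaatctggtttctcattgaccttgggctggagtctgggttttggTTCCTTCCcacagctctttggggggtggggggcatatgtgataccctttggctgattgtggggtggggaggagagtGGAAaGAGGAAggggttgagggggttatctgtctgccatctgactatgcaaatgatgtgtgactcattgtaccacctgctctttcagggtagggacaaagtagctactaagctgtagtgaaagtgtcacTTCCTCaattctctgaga
Cd180 promoter, chr13:102693297-102693576, plus strand: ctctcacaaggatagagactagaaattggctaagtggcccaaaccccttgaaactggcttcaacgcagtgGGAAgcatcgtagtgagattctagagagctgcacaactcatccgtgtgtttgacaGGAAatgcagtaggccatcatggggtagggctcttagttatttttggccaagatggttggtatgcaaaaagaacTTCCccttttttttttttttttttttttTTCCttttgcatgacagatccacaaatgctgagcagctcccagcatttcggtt
Myd88 promoter, chr9:119339989-119340268, minus strand: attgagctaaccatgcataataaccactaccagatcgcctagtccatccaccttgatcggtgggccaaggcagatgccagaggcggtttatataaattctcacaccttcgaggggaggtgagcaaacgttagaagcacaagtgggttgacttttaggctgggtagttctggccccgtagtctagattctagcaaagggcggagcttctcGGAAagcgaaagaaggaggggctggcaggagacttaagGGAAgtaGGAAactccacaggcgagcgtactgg
Tlr2 promoter, chr3:83841579-83841858, minus strand: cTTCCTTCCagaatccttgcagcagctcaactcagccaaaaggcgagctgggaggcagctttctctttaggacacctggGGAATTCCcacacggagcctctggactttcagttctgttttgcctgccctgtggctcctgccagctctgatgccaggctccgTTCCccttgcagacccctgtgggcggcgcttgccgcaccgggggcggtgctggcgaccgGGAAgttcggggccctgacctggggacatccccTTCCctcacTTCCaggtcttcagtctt
Tlr6 promoter, chr5:64960019-64960298, minus strand: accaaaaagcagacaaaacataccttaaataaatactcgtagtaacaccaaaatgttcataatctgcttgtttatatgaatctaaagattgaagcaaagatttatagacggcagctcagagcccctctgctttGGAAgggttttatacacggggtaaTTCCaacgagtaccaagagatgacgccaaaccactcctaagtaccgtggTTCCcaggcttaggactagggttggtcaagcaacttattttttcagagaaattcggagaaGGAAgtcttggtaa

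In the Tlr9 promoter a GAGGAA match on the opposite strand (printed TTCCTC) covered bases 13 to 18 after the start. The summits of the Tlr9 start site lay 5 bp from this match at day 4, inside it at day 8, and 15 bp from it at day 12. In Day 12- 4 and Day 12- 12 they lay 90 and 34 bp from it. These were 108 and 52 bases after the start, beyond the searched window, and the sequence around them was not read. The other GAGGAA match of Tlr9 lay between 112 and 107 bases before the start, away from any summit.

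The Cd180, Myd88, Tlr2 and Tlr6 promoters held GGAA matches and no GAGGAA. At Cd180 the summits of days 4, 8 and 12 lay 14, 11 and 10 bp from the nearest GGAA. At Myd88 the day 4 and 12 summits lay 9 and 20 bp from the nearest GGAA of the searched window. Its summits of day 8, Day 12- 8 and Day 12- 12 lay 67, 207 and 137 bases after the start, beyond that window. They lay 59, 199 and 129 bp from the last GGAA inside it, and the sequence around them was not read. At Tlr2 the day 12 summit lay 27 bp from the nearest GGAA, and the summits of Day 12- 8 and Day 12- 12 lay 8 and 0 bp from one. The searched windows of Cd180, Myd88 and Tlr2 held 4, 3 and 8 GGAA matches, and no background was computed for these distances. The Tlr6 promoter itself held no summit. The nearest was a day 4 summit with a score of 5.36, also beyond the searched window and 234 bp from the last GGAA inside it.

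Matches of these lengths are common. GGAA occurred in 95.0% of 21263 promoter windows of protein-coding genes, and GAGGAA in 24.9%. Among windows that held a summit, GAGGAA occurred in 30.8%, 40.5%, 36.7% and 29.6% at days 0, 4, 8 and 12, and in 41.0%, 27.7% and 33.8% in Day 12- 4, Day 12- 8 and Day 12- 12. The module had 10 windows, since 3 genes had 2 each, and 2 of the 10 held GAGGAA. The other, besides Tlr9, belonged to Tlr1, with the match between 23 and 18 bases before a start where no library had a summit.

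**Figure D4:**
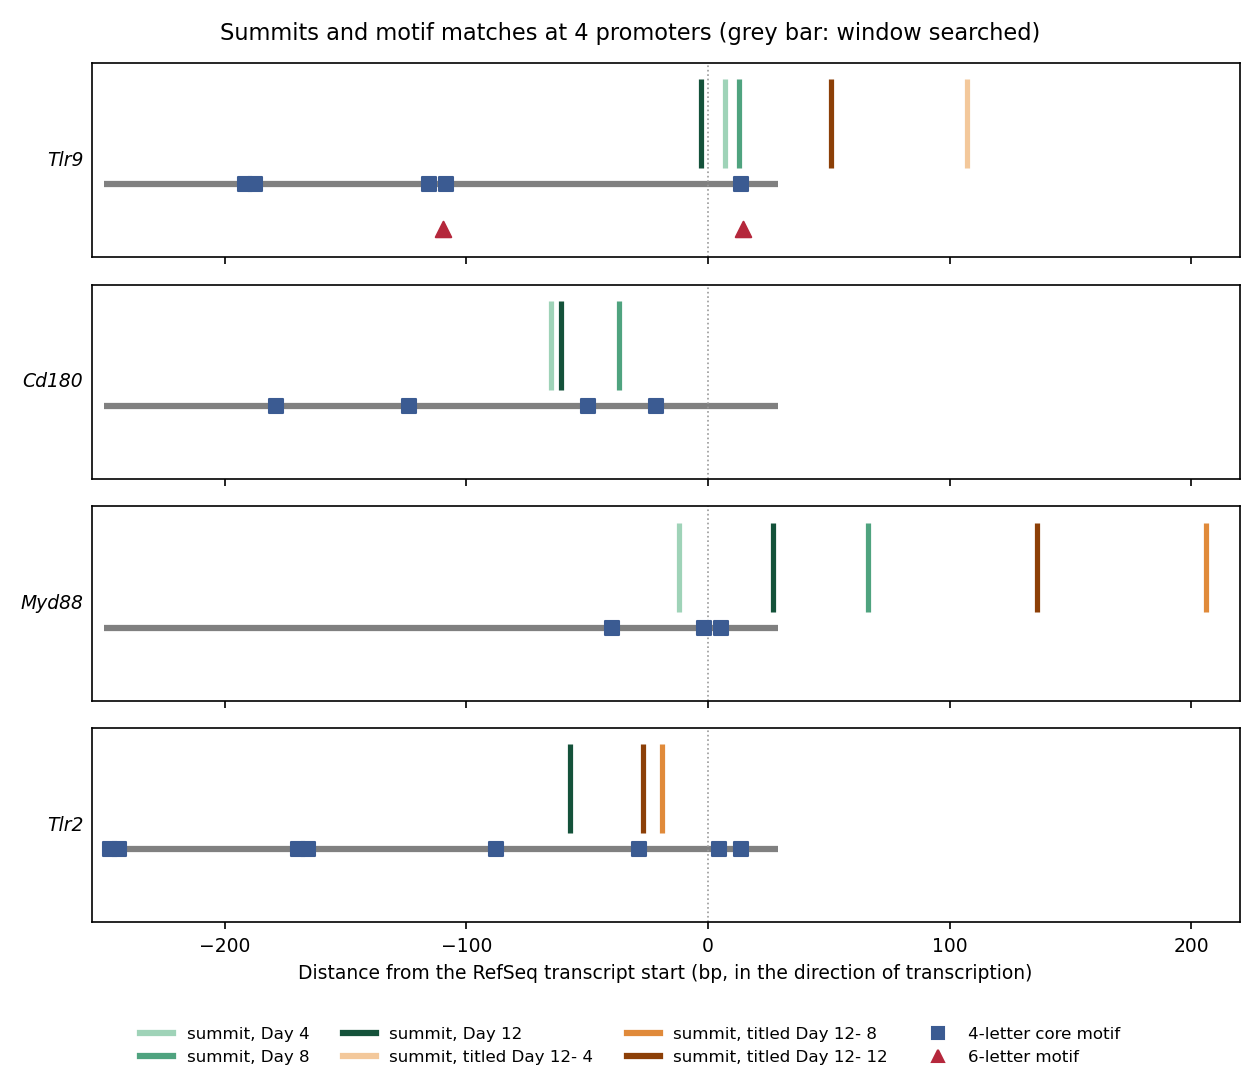
Summits (vertical bars, coloured by library) and motif matches (squares, 4-letter core; triangles, 6-letter motif) at the promoters of Tlr9, Cd180, Myd88 and Tlr2, in bp from the RefSeq transcript start in the direction of transcription. The day 4, 8 and 12 summits of Tlr9 lie within 15 bp of the 6-letter match after the start, and the Cd180 summits lie within 14 bp of a core match.

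Beyond the module, 40 other genes of the Toll-like receptor pathway were read the same way. They comprised further receptors, adaptors, kinases, NF-kB and IRF factors, chaperones and inhibitors. At days 0, 4, 8 and 12 a site lay at 17, 35, 35 and 37 of these 40, against 36.8%, 69.8%, 61.7% and 77.1% of all genes. In Day 12- 4, Day 12- 8 and Day 12- 12 it lay at 20, 29 and 35, against 34.8%, 61.8% and 78.9%. The median of the highest scores, with genes lacking a site counted as 0, was 74.3 for the module at day 12, 131 for the 40 pathway genes and 33.4 for all genes. At day 4 it was 78.9, 55.3 and 15.6, and at day 8 it was 28.8, 35.0 and 11.5, in the same order. At day 0 all 3 medians were 0. In Day 12- 4 the module's median was 0, that of the pathway genes 2.93 and that of all genes 0. In Day 12- 8 the module's median, 2.57, was the lowest of the 3, against 10.8 for the pathway genes and 6.08 for all genes. In Day 12- 12 it was 16.2, against 20.9 and 10.7.

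The 4 pathway genes with the highest day 12 scores lie downstream of or beside the receptors. Nfkb1, which encodes the NF-kB subunit p50, had highest scores of 33.9, 403, 179.7 and 742 at days 0, 4, 8 and 12. Unc93b1, the chaperone that carries Tlr9 to endosomes, had 197, 155 and 585 at days 4, 8 and 12. Irf7, an interferon regulatory factor, had 168, 95.6 and 531 at the same times. Irak4, the kinase recruited by Myd88, had 125, 85.5 and 414. Unc93b1, Irf7 and Irak4 had no day 0 site and a site in each of the other libraries, as did Tlr9 and Cd14. The pathway genes Irf3, Tollip, Sigirr and Map3k8 had the same pattern. It was common, since Tlr9 shared it with 2558 other genes of the 21887. The only Cd14 call in Day 12- 4 and in Day 12- 8 was the site 8.5 kb outside it, inside Tmco6.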

How the data were processed

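PU.1 ChIP-seq summit lists of 7 libraries, 1 per title, were analysed. Per the submitters' processing notes, peaks were called with MACS2 on mm10. The deposited column read as −log10 q-values was taken as such because every list starts just above −log10 of 0.05, the usual MACS2 limit. The aligner, MACS2 version, control, filters and depth are not given in the sources used here, nor is whether libraries were pooled. Depth therefore gives no interval for any site.

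Lists were read with Python 3.11.15, numpy 2.4.6 and pandas 2.3.3 and plotted with matplotlib 3.10.9. Summits were counted for a gene from 10 kb below to 10 kb above its coordinates in the RefSeq GRCm38.p6 table, without mitochondrial genes. Summits of the 7 lists within 100 bp were merged by single linkage. Ranks are percentages of a list counted from its highest score. Counting and merging were tested on simulated data. All 10 genes were named. Pathway genes were named when among the 4 highest day 12 scores or without any site, and the remaining Toll-like receptor genes were added after their values were seen. The members and lists were chosen with earlier results of these data known. Alternatives were other windows, score minimums, equal list lengths, nearest-gene counting, merging distances and treatment labels.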

Additional observations from a re-analysis of the deposited data

How the results depend on the processing

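Of 52 alternative values, 35 stayed within 1.5 times the count given. With a gene body in place of the 10 kb window, Day 12- 4 had 2 genes in place of 4, day 12 sites without a day 0 call numbered 11 in place of 26, and those also called in a knockdown-titled library 5 in place of 13. With scores of at least 20 the genes with a site numbered 0 at day 0, 5 at day 8 and 6 at day 12, and 2, 0 and 4 in Day 12- 4, Day 12- 8 and Day 12- 12. The same minimum left 9 day 12 sites without a day 0 call, and 4 of them in a knockdown-titled library. With lists of 8043 sites, 5, 5 and 4 genes had a site at days 4, 8 and 12 and 4 in Day 12- 12, and 2 genes had a day 12 site without a day 0 site. The cause of these shifts was not tested. Leaving out each knockdown-titled library in turn gave 6 to 13 sites, the lowest without Day 12- 12. A 25 kb window, nearest-gene counting and merging within 50 or 500 bp kept every count they were applied to within 1.5 times. Treatment labels were applied to 1 count alone, the 13 sites, by leaving out Day 12- 4. All 13 were called in Day 12- 12, so this step could not change the count and says nothing about the labels. It repeats the omission of Day 12- 4, and both are among the 35. No paired analysis was possible because each time point had 1 library. Unknown depth limits every list: an uncalled site may be bound, and low-scoring sites rest on the length of their list.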

Other observations

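The remaining Toll-like receptor genes outside the module differed in how often they had a site. They are described here after their values were seen, except Tlr7 and Tlr11. Tlr7, a receptor for single-stranded RNA, and Tlr11, a receptor for protozoan and bacterial proteins in mice, were the 2 of 40 pathway genes with no site in any library, as were 13.4% of all genes. Tlr5, the flagellin receptor, had a highest score of 113 at day 4, 43.5 at day 8 and 78.5 at day 12, and no day 0 site. Tlr13, which detects bacterial ribosomal RNA in mice, scored 85.4, 9.78 and 71.9 at the same times. Tlr12 had its highest score at day 12, with 10.2, 7.68 and 125 at days 4, 8 and 12, and a site in Day 12- 8 and Day 12- 12. In the knockdown-titled libraries Tlr5 scored 14.5 in Day 12- 4 and 24.5 in Day 12- 12, and Tlr13 scored 7.21 in Day 12- 12. Tlr3, the receptor for double-stranded RNA, had a site at day 12 alone, with a score of 9.17, and Tlr8 at day 4 alone, with 5.27. No library called a site inside the body of Tlr8 or Tlr13, so their scores came from sites outside the gene.

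The protein-coding genes over 1000000 bp away or on other chromosomes whose highest scores were most like those of Myd88 were Ncf1, Gtf2i and Rhof. Likeness was the Euclidean distance between log10 of 1 plus the highest score over the 7 libraries. It was 0.128 for Ncf1, 0.165 for Gtf2i and 0.171 for Rhof. Ncf1, which encodes a subunit of the phagocyte oxidase, scored 666 at day 12 and 8.30 at day 0, against 703 and 8.41 for Myd88. Gtf2i had the same score as Ncf1 in 5 of the 7 libraries. Whether the windows of Ncf1 and Gtf2i hold the same sites was not checked, so they cannot be read as separate matches. Rhof scored 671 at day 12 and 12.1 at day 0.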
